A study of Danio rerio with 6 samples.

Results

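The 9 genes described here are protein-coding genes of the mitochondrial genome, namely *mt-nd1*, *mt-nd2*, *mt-nd4*, *mt-nd5*, *mt-cyb*, *mt-co1*, *mt-co2*, *mt-co3* and *mt-atp6*. They were found by matching the symbol of each Ensembl identifier, with case ignored, and each matched 1 of the 32520 genes in the count tables. RNA-seq compared gonads of wild-type zebrafish (tg(ziwi:GFP), eif4e1b +/+) with gonads of *eif4e1b* mutants (tg(ziwi:GFP), eif4e1b -/-), in 3 samples per genotype with 3 pooled gonads each. Both genotypes carried ziwi:GFP, in which a germ cell promoter drives green fluorescent protein, and juveniles with high fluorescence were taken. All 6 samples are labelled as female and as ovary, and *eif4e1b* encodes a germline form of the cap-binding translation factor eIF4E. A sample holds whole gonads, so fewer cells of a type and less RNA per cell cannot be told apart, and the pooling hides differences between single fish.

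Mitochondria keep a small circular genome whose protein-coding genes all specify subunits of the respiratory chain and the ATP synthase. It is transcribed inside the organelle into long RNAs that are cut into mRNAs, rRNAs and tRNAs, while every other protein of these complexes, and all proteins that transcribe, process and translate the mitochondrial RNAs, come from nuclear genes. Oocytes accumulate very large numbers of mitochondria, which in zebrafish gather early in the Balbiani body, and the embryo inherits its mitochondria from the egg.

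Counts totalled 11771342 to 13362230 per wild-type sample and 5539470 to 8233080 per mutant sample, and the 10 most abundant genes took 3.28% to 4.098% of wild-type and 7.71% to 21.2% of mutant counts. The targeted transcript *eif4e1b* (ENSDARG00000014565) fell from a mean of 116 to a mean of 3.78 CPM, with a log2 fold change of -4.92 that was -5.67 without mutant sample 1. CPM here means counts per 1000000 after scaling by TMM factors, which correct the library total for RNA composition. All 16 tested genes of an oocyte marker list were lower in the mutants, with a summed level of 12748 to 16403 CPM in wild-type and 119 to 604 CPM in mutant samples. The oocyte growth factor gene *gdf9* had 528, 625 and 682 counts in wild-type gonads against 26, 7 and 2 counts in mutant gonads. The mutant gonads, labelled as ovary, thus held few oocyte transcripts. The median log2 fold change of the oocyte list was -6.07, and the part of this loss in the fall of *eif4e1b* was not tested. Of 7 tested testis somatic cell markers 6 were higher in them, against 37.5% higher and 32.0% lower among all tested genes. The filter on low counts asked for about 1 count per 1000000 before TMM scaling. This minimum was reached by *cyp11c1* and *star* in only 1 wild-type sample and by *dmrt1* in 2. These markers thus passed the filter through the mutant samples, and their calls are not read as support. Wild-type sample 1 stood apart for some of the testis somatic cell markers, with 627 counts of *amh* against 21 and 27 in wild-type samples 2 and 3. Genes were called higher or lower at an adjusted p under 0.05 in the quasi-likelihood test of edgeR, with the Benjamini-Hochberg adjustment over 20091 tested genes.

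All 9 mitochondrially encoded mRNAs were higher in *eif4e1b* mutant gonads than in wild-type gonads. Summed over the 9 genes, they made up 19.6 ± 3.29 of 1000000 counts (SD, n = 3) in wild-type and 198 ± 62.9 of 1000000 counts (SD, n = 3) in mutant gonads, a ratio of 10.1. After TMM scaling the sums were 22.5 ± 4.23 and 194 ± 131 CPM (SD, n = 3), a ratio of 8.64. Single genes rose by 2.74 to 3.88 on the log2 scale, and for every gene the lowest mutant sample exceeded the highest wild-type sample. Among all tested genes 37.5% were called higher, and for 39.8% all 3 mutant values lay above all 3 wild-type values. The median log2 fold change was 3.20 for the 9 mRNAs and 0.23 for all tested genes.

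The summed counts were 240, 202 and 312 in wild-type samples 1, 2 and 3 and 875, 2224 and 974 in mutant samples 1, 2 and 3. Per 1000000 counts of the sample, this came to 18.3 (95% Wilson interval 16.1 to 20.8), 17.2 (14.95 to 19.7) and 23.3 (20.9 to 26.1) in the wild-type samples. It came to 158 (148 to 169), 270 (259 to 282) and 165 (155 to 175) in mutant samples 1, 2 and 3. The groups did not overlap, mutant sample 2 was highest, and the other 2 mutant samples lay close to each other. These intervals cover counting error only. The ratio between the genotype means ranged from 8.23, without mutant sample 2, to 11.1 when each sample was left out in turn. The share was small throughout, and mutant sample 2, the highest, stood at 0.02701% of counts. How mitochondrial reads and reads with several matches, such as those shared with nuclear copies of mitochondrial DNA, were treated before counting is not given in the sources used here. The levels and the genotype ratios given here therefore describe the counted reads alone and are not read as the abundance of mitochondrial RNA. Whether the treatment of such reads affected both genotypes alike was not tested.

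**Figure D1:**
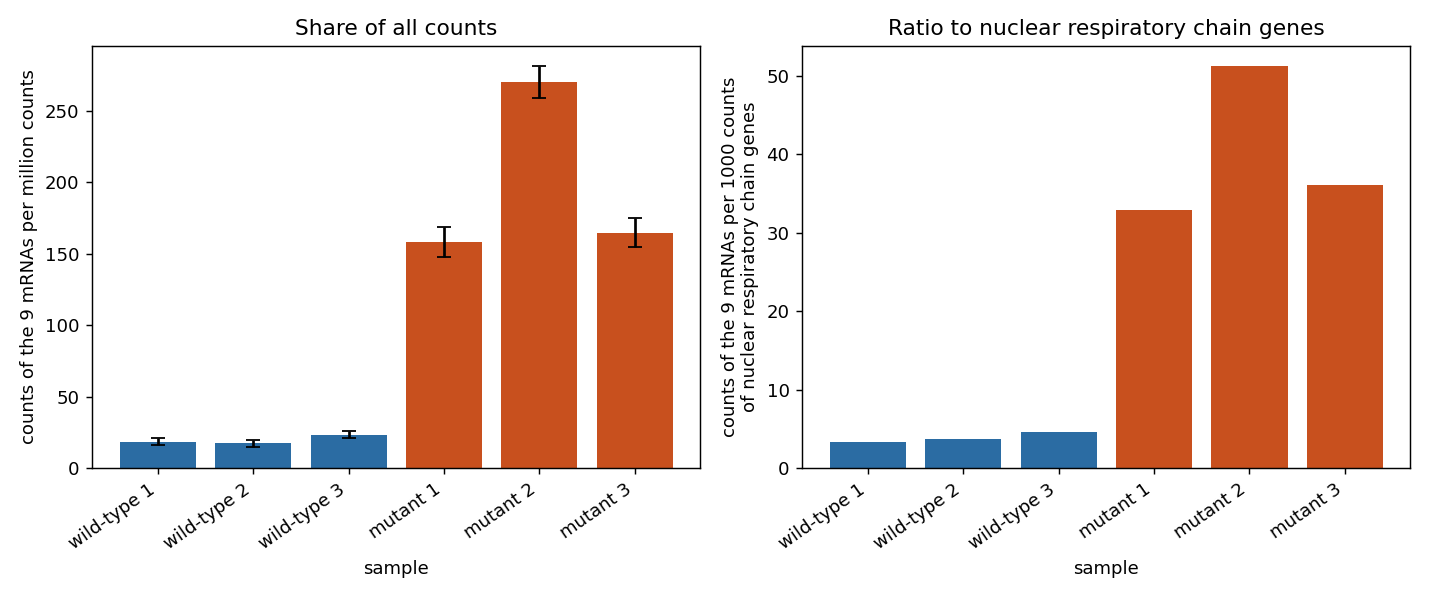
Left, counts of the 9 mitochondrially encoded mRNAs per 1000000 counts in each sample, with 95% Wilson intervals; right, the same counts per 1000 counts of nuclear respiratory chain genes. Wild-type samples (blue) lie between 17.2 and 23.3 per 1000000 and mutant samples (orange) between 158 and 270, with mutant sample 2 highest in both panels.

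*mt-co1*, *mt-co2* and *mt-co3* encode the 3 core subunits of complex IV, cytochrome c oxidase, which passes electrons to oxygen. The catalytic subunit gene *mt-co1* (ENSDARG00000063905) had 121, 118 and 163 counts in wild-type gonads against 435, 996 and 491 counts in mutant gonads. Its normalized level was 10.99, 10.9 and 14.1 CPM in wild-type samples 1, 2 and 3 and 53.3, 155 and 65.5 CPM in mutant samples 1, 2 and 3. The wild-type values were tightly grouped, and on this normalized scale mutant sample 2 was more than double either other mutant sample. The mean rose from 12.0 ± 1.83 to 91.1 ± 55.3 CPM (SD, n = 3), a log2 fold change of 2.92 (standard error, SE, 0.44; adjusted p = 0.00169 by edgeR).

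Levels of *mt-co2* (ENSDARG00000063908), whose product takes electrons from cytochrome c, were 1.91, 1.198 and 2.25 CPM in wild-type samples and 6.61, 18.8 and 10.7 CPM in mutant samples. This was the smallest change of the 9, with a log2 fold change of 2.74 (SE 0.49, adjusted p = 0.00308, edgeR). For *mt-co3* (ENSDARG00000063912), the third core subunit, wild-type samples had 2.82, 1.66 and 1.73 CPM and mutant samples 11.02, 33.7 and 9.87 CPM. Here mutant samples 1 and 3 were nearly equal and mutant sample 2 stood apart. The log2 fold change of *mt-co3* was 3.13 (SE 0.59, adjusted p = 0.00361, edgeR).

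The products of *mt-nd1*, *mt-nd2*, *mt-nd4* and *mt-nd5* sit in the membrane arm of complex I, NADH dehydrogenase, which takes electrons from NADH and pumps protons. *mt-nd1* (ENSDARG00000063895) was at 1.73, 1.38 and 1.21 CPM in wild-type samples and at 6.12, 24.5 and 7.60 CPM in mutant samples, with a log2 fold change of 3.13 (SE 0.62). *mt-nd2* (ENSDARG00000063899) was at 0.636, 0.369 and 1.47 CPM in wild-type samples and at 5.39, 16.9 and 9.34 CPM in mutant samples, with a log2 fold change of 3.64 (SE 0.66). Neither gene's groups overlapped, and the adjusted p was 0.00453 for *mt-nd1* and 0.00321 for *mt-nd2* by edgeR. *mt-nd4* (ENSDARG00000063917), an antiporter-like subunit, was at 0.727, 0.276 and 1.38 CPM in wild-type and at 5.14, 26.2 and 4.67 CPM in mutant samples. *mt-nd5* (ENSDARG00000063921), another antiporter-like subunit, was at 0.454, 1.29 and 1.90 CPM in wild-type and at 6.12, 29.5 and 7.47 CPM in mutant samples. Both had low, scattered wild-type values, with as few as 3 counts of *mt-nd4* in wild-type sample 2, and both were far higher in mutant sample 2 than in the other mutants. *mt-nd4* had the largest log2 fold change of the 9, at 3.88, and also the largest standard error, at 0.93, with an adjusted p of 0.00895 by edgeR. The log2 fold change of *mt-nd5* was 3.54 (SE 0.82, adjusted p = 0.00789, edgeR).

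*mt-cyb* (ENSDARG00000063924) encodes cytochrome b, the only mitochondrially encoded subunit of complex III, and was at 1.54, 0.461 and 2.16 CPM in wild-type and at 6.73, 25.6 and 10.005 CPM in mutant samples. Its log2 fold change was 3.32 (SE 0.73, adjusted p = 0.00639, edgeR). *mt-atp6* (ENSDARG00000063911) encodes a subunit of the proton path of the ATP synthase and was at 0.999, 1.11 and 0.779 CPM in wild-type and at 6.73, 15.4 and 4.80 CPM in mutant samples. It had the widest gap between groups of the 9 genes, as its lowest mutant value was 4.34 times its highest wild-type value. Its log2 fold change was 3.20 (SE 0.55, adjusted p = 0.00250, edgeR).

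**Figure D2:**
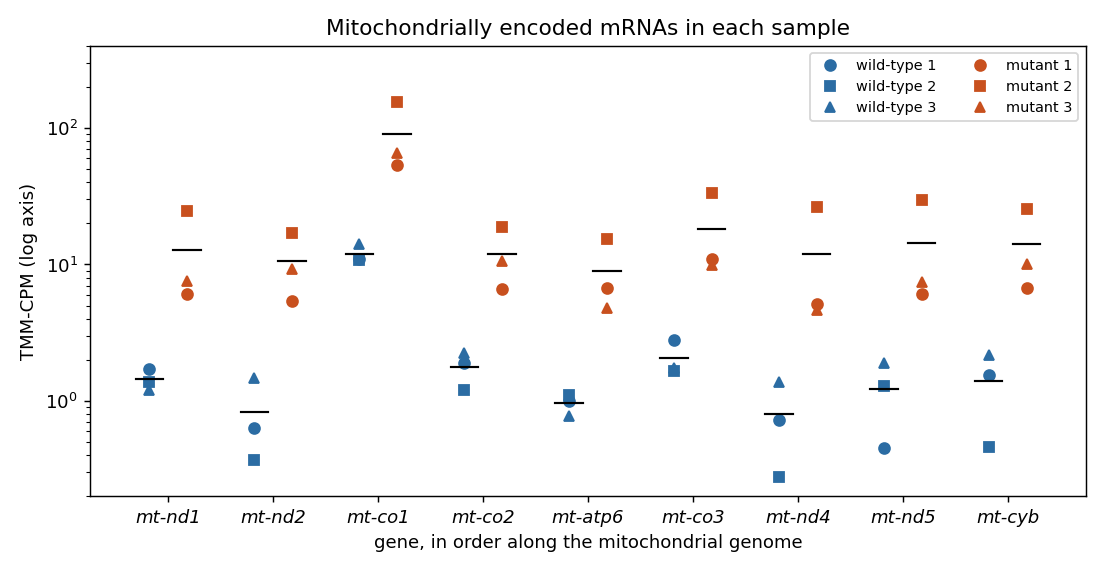
Level of each mitochondrially encoded mRNA in each sample, in TMM-CPM on a log axis, with genes in their order along the mitochondrial genome and a black bar at each genotype mean. For all 9 genes the 3 mutant values (orange) lie above the 3 wild-type values (blue), and mutant sample 2 (squares) is the highest.

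All 9 genes passed the filter on low counts. Only 4 of them (*mt-nd1*, *mt-co1*, *mt-co2* and *mt-co3*) reached its minimum in all 3 wild-type samples. This minimum was about 1 count per 1000000 before TMM scaling, and all 9 reached it in every mutant sample. The other members reached it in only 1 or 2 wild-type samples and would not have passed without the mutant samples. The filter thus favoured calls in this direction, and the number of these calls is not read as support. In every gene mutant sample 2 was highest, at 2.17 (*mt-co2*) to 5.34 (*mt-nd4*) times the mean of mutant samples 1 and 3. Without it all 9 remained higher, but the log2 fold change dropped to 2.26 for *mt-nd1*, 2.32 for *mt-co1*, 2.36 for *mt-co3*, 2.47 for *mt-nd5*, 2.59 for *mt-cyb*, 2.60 for *mt-atp6* and 2.63 for *mt-nd4*. Without wild-type sample 3, that of *mt-nd2* was 4.30 and that of *mt-nd4* was 4.49. Scaling by upper-quartile factors shifted the median of all tested genes to 0.92 and the 9 mRNAs to between 3.43 and 4.58.

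The vertebrate mitochondrial genome has 13 protein-coding genes, and the other 4 had few counts. *mt-nd6*, a complex I subunit gene on the opposite strand to the rest, had 7, 2 and 3 counts in wild-type and 25, 35 and 16 counts in mutant samples. Its log2 fold change was 3.25, with an adjusted p of 0.00402 by edgeR. *mt-nd4l*, a small complex I subunit gene next to *mt-nd4*, had 3, 1 and 3 counts in wild-type and 6, 14 and 8 counts in mutant samples, with a log2 fold change of 2.57 and an adjusted p of 0.0113 by edgeR. No wild-type sample reached the filter minimum for either gene, so both were tested through the mutant samples alone and their calls are not read as support. Too few counts for the test were found for *mt-nd3*, another complex I subunit gene, with 0, 2 and 1 counts in wild-type and 4, 6 and 3 in mutant samples. The same held for *mt-atp8*, which encodes a small ATP synthase subunit, with 1, 0 and 0 counts in wild-type and 6, 9 and 4 in mutant samples. Pooled over samples, mutant over wild-type counts per 1000000 gave 8.42 for *mt-nd3* (exact 95% interval 2.31 to 46.0) and 36.9 for *mt-atp8* (5.87 to 1533). For all 4 the lowest mutant count exceeded the highest wild-type count, although the mutant libraries were smaller. In vertebrate mitochondrial genomes *mt-atp8* overlaps *mt-atp6* and *mt-nd4l* overlaps *mt-nd4*, so reads at these borders cannot be assigned with certainty. No gene matched a symbol of the mitochondrial rRNAs or tRNAs.

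The composition of the mitochondrially encoded counts does not depend on the scaling between libraries. *mt-co1* accounted in wild-type gonads for 50.4%, 58.4% and 52.2% of the counts of the 9 mRNAs, and in mutant gonads for 49.7%, 44.8% and 50.4%. Its mean share was 53.7% ± 4.19 in wild-type and 48.3% ± 3.07 in mutant gonads (SD, n = 3), and the highest mutant and the lowest wild-type sample both stood at 50.4%. The shares of the other 8 genes overlapped between the genotypes. By complex, the 4 complex I genes took 18.7% ± 3.04 of these counts in wild-type and 23.9% ± 3.70 in mutant gonads, and the 3 complex IV genes took 70.9% ± 3.53 and 64.1% ± 3.59 (SD, n = 3). The differences in mean share were small beside the 10.1-fold ratio of the sums, and no test was run on them. Counts are not corrected for gene length, so these shares serve to compare samples, not genes.

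**Figure D3:**
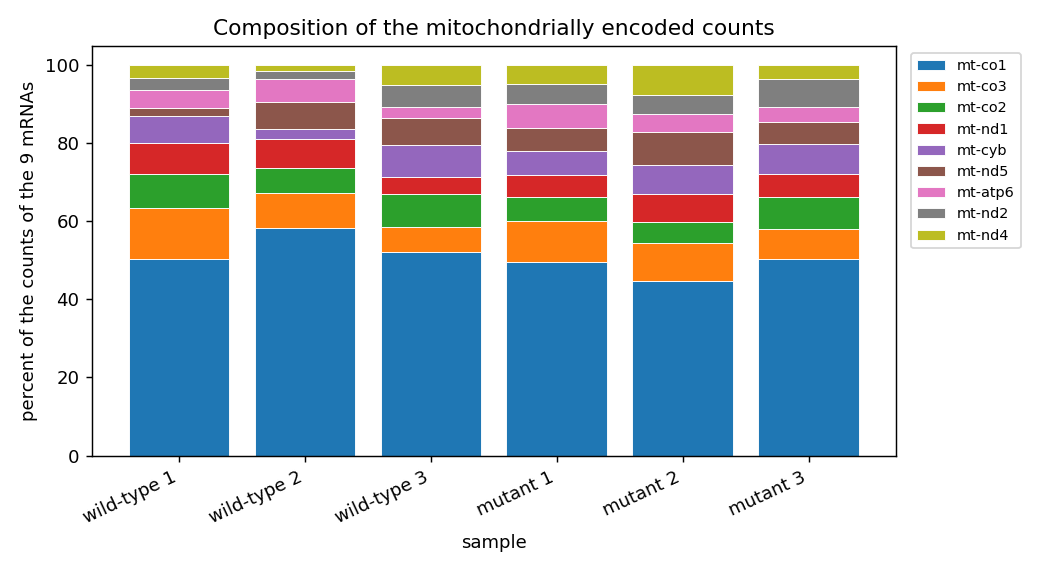
Share of each gene in the summed counts of the 9 mitochondrially encoded mRNAs, in percent, for each sample. *mt-co1* (bottom) takes 44.8% to 58.4% of the sum, and the order of the smaller shares varies between samples of one genotype.

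Nuclear genes of the respiratory chain were compared with the mitochondrially encoded genes, since the 2 sets build the same complexes. Of 90 tested nuclear genes of the 5 complexes, 10 were higher (11.1%) and 18 lower (20%) in the mutants, with a median log2 fold change of -0.13. Both shares lay below the 37.5% higher and 32.0% lower among all tested genes. Their summed share of counts was 0.549%, 0.462% and 0.503% in wild-type and 0.481%, 0.527% and 0.457% in mutant samples. These shares overlapped between the genotypes. The 9 mitochondrially encoded mRNAs thus stood at 3.33, 3.71 and 4.64 counts per 1000 nuclear respiratory chain counts in wild-type samples 1, 2 and 3, and at 32.9, 51.3 and 36.0 in mutant samples 1, 2 and 3. The mean was 3.90 ± 0.674 in wild-type and 40.0 ± 9.84 in mutant gonads (SD, n = 3), a ratio of 10.3 that ranged from 8.84 to 11.4 when each sample was left out. Against genes of mitochondrial import and structure the ratio between the genotypes was 8.56.

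By complex, the counts of calls among nuclear genes were as follows, beside 37.5% higher and 32.0% lower among all tested genes. For complex I 0 of 37 tested nuclear genes were higher and 4 lower, among them *ndufa7* and *ndufs6*, 2 accessory subunit genes, which fell by 0.93 and 1.05 on the log2 scale. Complex II, which has no mitochondrially encoded subunit, had 1 of 5 higher, a gene named *sdhd* (ENSDARG00000055712) with a log2 fold change of 3.46 at a level of 3.07 CPM or less in every sample. This gene, like *mterf2*, *ppargc1a* and *timm17b* below, reached the filter minimum in no wild-type sample, so it was tested through the mutant samples alone and had to be higher there. In complex III 0 of 9 were higher and 2 lower, the subunit gene *uqcr10* (log2 fold change -1.80) and the Rieske iron-sulfur protein gene *uqcrfs1* (-1.40). In complex V 0 of 18 were higher and 4 lower, with log2 fold changes of -1.61 for *atp5md* and -1.01 for *atp5f1e*, 2 small subunits of the ATP synthase. In complex IV 9 of 21 were higher (42.9%) and 8 lower (38.1%) around a median of -0.03, shares near the 37.5% higher and 32.0% lower among all tested genes. For higher genes of complexes I, III and V, the counts at an unadjusted p under 0.05 were 1, 0 and 0 in edgeR, and adjusted calls numbered 1, 0 and 0 in DESeq2 and 0 in limma-voom. The count of lower genes over all complexes rested on single libraries. It was 40 without mutant sample 2, 9 without mutant sample 1, 10 without wild-type sample 1 and 8 without wild-type sample 3, and *atp5f1e* lost its call without mutant sample 1, wild-type sample 1 or wild-type sample 3. With library totals alone it was 5, and with upper-quartile factors it was 2 while 24 were higher, so the direction of the small changes depended on the scaling.

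The complex IV genes that rose included *cox8a* (ENSDARG00000095273), from 4.81, 2.76 and 2.68 CPM in wild-type samples to 17.9, 24.5 and 21.9 CPM in mutant samples, and *cox6b1* (ENSDARG00000045230), from 2.45, 1.11 and 1.47 CPM to 15.9, 59.4 and 21.1 CPM. Their log2 fold changes were 2.64 and 4.25, and *cox6b1*, like the mitochondrially encoded genes, was highest in mutant sample 2, without which it was at 3.48. Among the complex IV genes that fell, *cox7a2* (ENSDARG00000110700) had a log2 fold change of -1.72, and *cox6a1* (ENSDARG00000022438) one of -1.02. Genes that share the symbol *cox6a1* or *cox5b* moved in opposite directions, a pattern picked out after the values were seen. The other gene named *cox7a2* (ENSDARG00000053217) was lower as well, at -0.81. A second *cox6a1* (ENSDARG00000054588) was at 3.88, and the 3 genes named *cox5b* were at 4.79 (ENSDARG00000068738), 2.82 (ENSDARG00000113254) and -0.93 (ENSDARG00000015978). The *cox5b* gene at 2.82, *cox4i2* and *cox7a1* had wild-type means of 0.331, 0.302 and 0.358 CPM, far below the filter minimum. The second *cox6a1*, and *cox4i1l* with a log2 fold change of 2.46, had wild-type means of 0.776 and 0.650 CPM, also below the minimum. All of these genes passed the filter through the mutant samples, so their calls are not read as support. They are among the higher complex IV genes and, apart from *cox4i1l*, they are with *sdhd* among the 7 genes counted next. Only 7 of the 90 nuclear genes had a log2 fold change at or above that of *mt-co2*, the lowest of the 9 mitochondrially encoded mRNAs, against 18.1% of all tested genes.

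**Figure D4:**
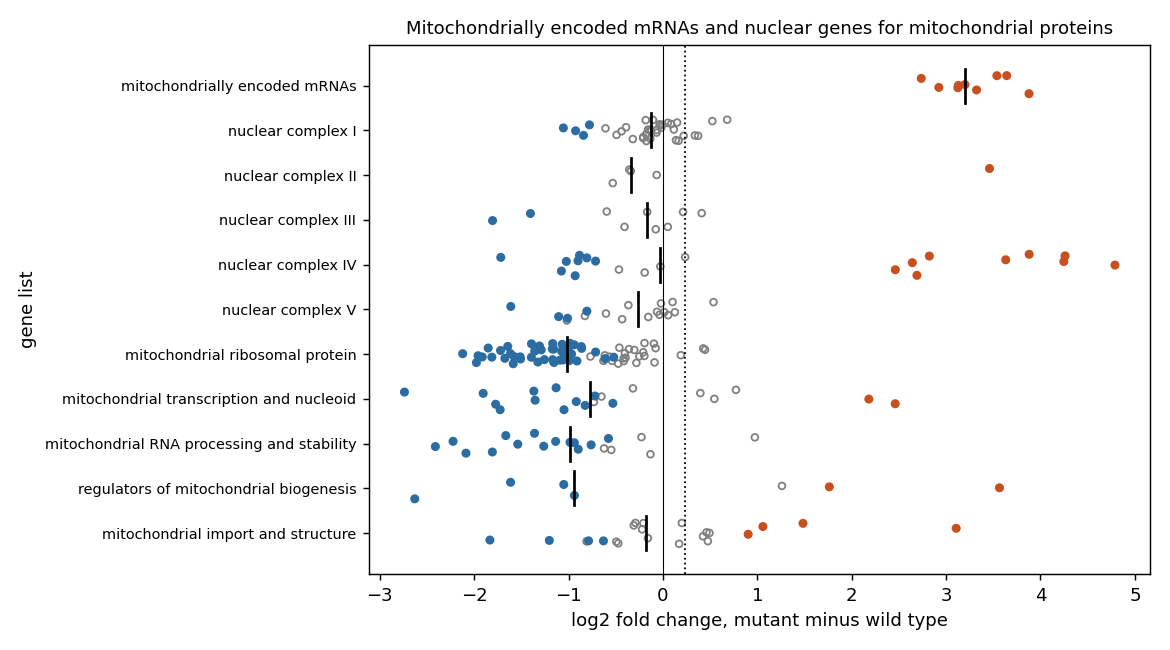
Log2 fold change, mutant minus wild type, of each tested gene, by list, with orange for higher and blue for lower at an adjusted p under 0.05, open grey for not called, a black bar at each list's median and a dotted line at the median of all tested genes (0.23). The 9 mitochondrially encoded mRNAs lie between 2.74 and 3.88, whereas the list medians of the nuclear genes lie between -1.02 and -0.03.

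Calls among nuclear genes that serve mitochondrial gene expression were mostly lower with TMM factors. Of 75 tested mitochondrial ribosomal protein genes, 50 were lower and 0 higher, with a median log2 fold change of -1.02. Among all tested genes 32.0% were lower and 37.5% higher. No member of this list or of the RNA processing list was higher at an unadjusted p under 0.05 in edgeR or called higher by DESeq2 or limma-voom. With library totals alone 22 ribosomal protein genes were lower, and with upper-quartile factors 19 were lower and 3 higher. *mrps16* and *mrps26*, of the small ribosomal subunit, had log2 fold changes of -2.12 and -1.72. Of 20 tested genes of transcription and the nucleoid, 12 were lower and 2 higher, or 7 lower without wild-type sample 3 and 4 higher without wild-type sample 1. With library totals alone 5 of this list were lower and 4 higher, and with upper-quartile factors 5 were lower and 5 higher. *top1mt*, the mitochondrial topoisomerase gene, fell from 53.6, 45.4 and 47.9 CPM in wild-type samples to 15.7, 13.96 and 13.3 CPM in mutant samples, and *twnk*, the gene of the helicase that unwinds mitochondrial DNA, had a log2 fold change of -1.72. The 2 that rose were *tfb2m*, a transcription initiation factor gene, at 2.18 (1.56 without mutant sample 2), and *mterf2*, of the mitochondrial termination factor family, at 2.46.

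Genes of RNA processing and stability were lower for 14 of 19 tested and higher for 0, against 32.0% lower and 37.5% higher among all tested genes. With library totals alone 7 of this list were lower and 1 higher, and with upper-quartile factors 6 were lower and 2 higher. *supv3l1*, whose human protein is a helicase of mitochondrial RNA decay, was at 117, 113 and 117 CPM in wild-type and at 21.1, 24.0 and 20.1 CPM in mutant samples, with a log2 fold change of -2.41 (SE 0.17, adjusted p = 0.000286, edgeR). *elac2*, which in humans encodes the enzyme that trims the end of tRNAs, had a log2 fold change of -2.22. For both, the highest mutant value lay below the lowest wild-type value, as the rule for naming genes required. Among all tested genes this held for 35.4%.

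A further 4 central genes of these pathways were chosen for their role after other results were known. *polrmt*, the mitochondrial RNA polymerase gene, was at 58.6, 72.3 and 62.2 CPM in wild-type and 36.6, 29.5 and 36.0 CPM in mutant samples, with a log2 fold change of -0.92 (SE 0.18). *tfam*, the gene of the factor that packages mitochondrial DNA and starts its transcription, was at 36.8, 23.1 and 24.1 CPM and at 42.7, 40.0 and 39.8 CPM, with a log2 fold change of 0.54 (SE 0.23). The adjusted p was 0.00454 for *polrmt* and 0.0698 for *tfam* by edgeR. *lrpprc* and *slirp* encode partners that stabilize mitochondrial mRNAs in mammals, and *lrpprc* had a log2 fold change of -0.13 (SE 0.18, adjusted p = 0.528, edgeR) while that of *slirp* was -0.76 (SE 0.28, adjusted p = 0.0447, edgeR). *tfam* was called higher without wild-type sample 1, at 0.75, with library totals alone, at 0.99, and with upper-quartile factors, at 1.23. With upper-quartile factors *lrpprc* was also called higher, at 0.56, and under both scalings *polrmt* and *slirp* were no longer called. *slirp* also lost its call when any sample other than mutant sample 2 was left out, with log2 fold changes from -0.88 to -0.71.

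Of 7 tested regulators of mitochondrial biogenesis, 2 were higher and 4 lower, against 37.5% and 32.0% of all tested genes, and so few genes say little about the group. The higher count was 1 without wild-type sample 2 or 3, and the lower count was 2 with library totals alone or upper-quartile factors. *ppargc1a*, the coactivator gene PGC-1alpha, was at 0.817, 0.276 and 0.606 CPM in wild-type and at 3.06, 13.7 and 4.002 CPM in mutant samples, a log2 fold change of 3.57 that was 2.63 without mutant sample 2. The nuclear receptor gene *esrra* had a log2 fold change of 1.76, which without mutant sample 2 was 0.87 and no longer called (adjusted p = 0.0609, edgeR), and it also lost its call without any one of the wild-type samples. *pprc1*, a related coactivator gene, was at 539, 661 and 662 CPM in wild-type and at 103, 100 and 98.0 CPM in mutant samples, a log2 fold change of -2.63. *nrf1*, the gene of a transcription factor of nuclear respiratory genes, had one of -1.61. Of 22 tested genes of import and structure, 4 were higher and 4 lower, among them *vdac1*, the outer membrane channel gene (-1.83), and *tomm20a*, an import receptor gene (-0.79), on the lower side. On the higher side, *timm17b*, an inner membrane translocase gene, was at 3.11, or 4.28 without wild-type sample 1, and *chchd3b*, a cristae organization gene, at 1.48, or 2.14 without that sample. *chchd3b* was no longer called without mutant sample 1 or 3 or without wild-type sample 2 or 3. In this list 11 genes were lower without mutant sample 2, and 2, 1 and 1 were higher without wild-type sample 1, 2 and 3, and 2 without mutant sample 3.

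The 9 mRNAs varied together over the 6 samples, with Pearson correlations between pairs of 0.94 at the lowest and 0.97 at the median, on log2(CPM + 1). The samples form 2 genotype groups, and the genes share libraries, so these values only describe the pattern. On the same scale, the nuclear genes most like the mean of the 9, among 11258 genes with a mean of at least 10 CPM, were *oaz2*, *slc27a2b*, *gstk1*, *phldb1b* and *sgpp1a*. A further count shows how common the pattern was, as 501 of these candidates reached 0.95. The minimum was a mean over all 6 samples, which let in genes that were high in the mutants alone. All 5 named genes had wild-type means of 1.39 to 5.21 CPM and entered through the mutant samples. Neither these genes nor the count is read as support. *gstk1*, a glutathione transferase gene, was at 2.45, 1.66 and 3.11 CPM in wild-type and at 23.4, 101 and 27.7 CPM in mutant samples. *slc27a2b*, a fatty acid transporter family gene, was at 1.36, 0.737 and 2.08 CPM and at 12.2, 58.8 and 14.7 CPM. In both, as in the 9 mRNAs, mutant sample 2 was highest, while the order of the other samples differed among the 9 mRNAs themselves.

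Many markers of other tissues were also higher in the mutants, where 37.5% of all tested genes were called higher and 32.0% lower. All 13 tested exocrine pancreas markers were higher, with a summed level of 83.8 to 344 CPM in wild-type and 37060 to 63079 CPM in mutant samples. This sum was highest in mutant sample 3. The liver list summed to 167, 70.1 and 1987 CPM in wild-type samples and to 418, 77926 and 10412 CPM in mutant samples 1, 2 and 3, and 2 of its 10 tested genes were called higher, although 9 had an unadjusted p under 0.05. The number called was 11 by DESeq2, 10 with library totals alone, 10 without the filter, 9 with upper-quartile factors and 1 by limma-voom. It was 11 without mutant sample 1, 10 without wild-type sample 3 and 1 when any other sample was left out. Mutant sample 2 and wild-type sample 3, the highest of their genotypes for the liver list, were also the highest for the sum of the 9 mRNAs. Mutant sample 1, at 418 CPM for the liver list, lay below wild-type sample 3 there, although above it for the 9 mRNAs. All 5 skeletal muscle markers were higher, at 25.5 to 44.1 CPM in wild-type and 178 to 585 CPM in mutant samples, with mutant sample 1 highest. Of the other lists, 5 of 5 tested skin and scale markers, 2 of 3 red blood cell markers and 3 of 5 intestine markers were higher. So were 6 of 8 tested genes of the spermatid and sperm list, among them *tekt1*, *spag6* and *dnah5*, while 1 (*spata18*, at -2.94) was lower. The list names do not establish which cells these transcripts came from. Germ cell markers of either sex were split, with 2 of 8 higher and 2 lower. All 3 tested genes of the ovarian somatic list, *fshr*, *lhcgr* and *inha*, were higher, but only 3 of the 10 symbols in that list matched a gene, and 5 of 11 in the muscle list. Symbols without a match included *cyp19a1a*, *foxl2a* and *foxl2b*, so these 3 genes are not read as a rise of ovarian somatic transcripts. Some higher markers reached the filter minimum in no wild-type sample and were tested through the mutant samples alone. They were *cela1.2*, *cela1.3*, *cela1.4*, *mb*, *apoa4a*, *chia.2*, *spag6*, *rsph9*, *lhcgr* and *nanos2*. Others, namely *sp7*, *cldni* and *tekt1*, reached it in only 1 wild-type sample, and *fabp2* and *apoa1a* in only 2. The calls of these genes are not read as support. Lists of so few genes say little beside the shares among all tested genes. The part of these tissues in the rise of the 9 mRNAs was not tested. Leaving the pancreas, liver and muscle marker genes out of the sample totals gave a ratio of mean shares of 11.04, which changes the denominator alone and not any mitochondrial RNA from those tissues.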

How the data were processed

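RNA-seq of 6 gonad samples was analysed, 3 per genotype, which are described as biological replicates of 3 gonads each. The authors deposited raw counts per gene and sample for the zebrafish genome GRCz11, with no normalization. The submitters' processing notes name Trim Galore 0.5.0, Bowtie2 2.3.4.1, featureCounts, Subread 1.6.2, DESeq2 1.18.1 and R 3.4.1 without their roles. The count tables pair identifiers with counts only, and symbols from a table of gene names matched 29201 of 32520 genes.

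Genotypes were compared with the two-sided edgeR quasi-likelihood test (edgeR 4.0.16, R 4.3.3), with TMM factors, genotype as the only term, the default filter (minimum count 10, minimum total 15) and Benjamini-Hochberg adjustment over all 20091 tested genes at 0.05. The script was tested on simulated data that did not hold the large composition differences between these genotypes. That test therefore says nothing about the choice of scaling. Shares carry 95% Wilson intervals, and ratios of pooled counts carry exact conditional intervals, for counting error only. Sums over genes carry no p-value. Replicates differed by more than sampling noise (chi-square per degree of freedom 10.4 to 149) and were each counted once.

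Members, gene lists and tests were chosen with earlier results of these data known. Named genes are all mitochondrially encoded mRNAs, *eif4e1b*, for each nuclear list the 2 called genes per direction with the smallest p-values among genes whose groups do not overlap, and the 5 genes most like the 9 mRNAs. Exceptions are named in the text. The alternatives were DESeq2 (1.42.0), limma-voom (limma 3.58.1), other scalings and filters, a fold threshold, a replicate block and leaving out each sample. Sequences and coordinates were not used here. Further software was python 3.11.15, pandas 2.3.3, scipy 1.17.1 and matplotlib 3.10.9.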

Additional observations from a re-analysis of the deposited data

How the results depend on the processing

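All 9 mitochondrially encoded mRNAs were called higher under each of the 16 alternatives, with log2 fold changes from 2.26 to 4.58. As above, the number of these calls is not read as support. The fold threshold reused the main fit and could not change them. Among all 20091 tested genes, 7528 were called higher in the main fit and 9840 with upper-quartile factors. Higher genes were 53.9% of all calls (TMM), 68.8% (library totals) and 71.1% (upper-quartile factors), and the median of all tested genes moved from 0.23 to 0.65 and 0.92. The 6437 genes called lower became 3740 with library totals and 4001 with upper-quartile factors. The 10 higher nuclear respiratory chain genes became 24 with upper-quartile factors. The 18 lower ones became 5 with library totals, 2 with upper-quartile factors, 9 with a minimum absolute log2 fold change of 1 and 11 with the replicate block, and ranged from 8 to 40 when each sample was left out. The log2 fold change of *lrpprc*, -0.13 with TMM factors, was 0.26 with library totals and 0.56 with upper-quartile factors. The cause of these shifts was not tested. Replicate numbers appear in the labels, but deviations of same-numbered samples correlated at 0.14, -0.20 and -0.05. Not every sample correlated best with its own number. With 3 samples per genotype these values cannot show whether a number marks a shared batch, and the main test used no pairing. With the replicate block 6625 genes were higher and 5887 lower, and all 9 mRNAs stayed higher. Shares without mitochondrial rRNA and tRNA genes were not run, because no gene matched. Depth limits *mt-nd3* and *mt-atp8* and the wild-type values of *mt-nd2*, *mt-nd4*, *mt-nd4l*, *mt-nd5*, *mt-nd6* and *mt-cyb*, each with 5 counts or fewer in at least 1 wild-type sample.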
